A study of Mus musculus with 8 samples.

Results

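Wnt signalling in the embryonic ventricle was described through 10 genes: 6 secreted antagonists (Wif1, Sfrp1, Sfrp2, Sfrp5, Frzb and Dkk3), 3 Frizzled receptors (Fzd1, Fzd2 and Fzd7) and Axin2, a target of the pathway. The genes were listed by symbol and found through their Ensembl identifiers, and all 10 were among the 13869 genes of the table and the 13740 tested. They were picked with the difference between mutant and wild-type hearts already known, so that difference is given for them as a description and not as a finding. In Mib1 mutant ventricles Wif1 was higher (2.38-fold), Fzd2 was higher (1.37-fold) and Sfrp5, a rare transcript, was lower (0.731 ± 0.325 CPM in mutants and 3.04 ± 0.668 CPM in wild type; SD, n = 4 each). Axin2 and the other 6 genes overlapped between the groups.

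Wnt proteins are secreted lipid-modified ligands that bind Frizzled receptors together with the co-receptors Lrp5 and Lrp6. In the canonical branch this stops the destruction complex from degrading beta-catenin, which then acts with TCF and LEF factors on target genes. Secreted antagonists act outside the cell: Wif1 and the Sfrp family, which includes Frzb, bind Wnt proteins, whereas the classical Dickkopf proteins bind Lrp5 and Lrp6. Axin2 is both a scaffold of the destruction complex and a widely used target, so it acts as feedback. In the developing heart, Wnt signals take part in progenitor growth, cardiomyocyte proliferation and the formation of valves.

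RNA came from ventricles dissected at E14.5, in 4 libraries of the genotype Mib1flox;TnT-Cre and 4 libraries of WT siblings, all of polyadenylated RNA read from 1 end. Mib1 encodes a ubiquitin ligase needed in signal-sending cells for Notch ligands to be active. Cre under the cardiac troponin T promoter acts in cardiomyocytes, whereas the libraries hold RNA of all cells of the ventricle. Each genotype was represented by 16 hearts combined into 4 pools, so a library is a pool and not an embryo. Whether litters were kept apart is not stated, and p-values reflect only how far these pools differ, which may be technical.

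The table gave 6307634 to 11506082 counts per library after its column scaling was undone, so that a floor of 3 counts lay between 0.265 and 0.472 CPM. CPM are counts scaled to a normalized library of 1000000. Intervals and floors cover counting error only. Mib1 itself stood at 95.3 to 106 CPM in the mutants and at 150 to 167 CPM in wild type (log2 difference −0.68 ± 0.06, SE; limma adjusted p = 8.62e-06), counted over the whole transcript. All 10 cardiomyocyte markers examined were present, and 0 of them were called. Their summed levels were 39373 to 42393 CPM in mutants and 41054 to 45335 CPM in wild type. By log2 difference 7 lay below 0 and 3 above (median −0.06). Every mutant library was below every wild-type library for Tnnt2 (3386 to 3605 against 3870 to 4196 CPM) and Myl2 (4254 to 4547 against 4859 to 4998 CPM). Called means an adjusted p under 0.05 by limma over all 13740 genes tested, which 308 genes passed (2.24%), 136 higher (0.99%) and 172 lower (1.25%) in mutants. The count of 308 was 183 without mutant replicate 2, 477 without mutant replicate 3, and 146, 147 and 161 without wild-type replicates 1, 2 and 3.

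Promoter sequences were available for 7 of the 10 genes in RefSeq (build GRCm38.p6, whereas the build named for the deposited values is mm9). They are shown for the antagonists with the largest rise and the largest fall, for the target, and for the only 1 of the 7 that held a match to the TCF/LEF motif. Each is the 250 bases before the annotated start, read 5′ to 3′ on the strand of the gene. They lie at chr10:121033754-121034003 (+) for Wif1, chr19:42202253-42202502 (−) for Sfrp5, chr11:108920099-108920348 (+) for Axin2 and chr1:59481897-59482146 (+) for Fzd7, and capitals mark the motif.
Wif1: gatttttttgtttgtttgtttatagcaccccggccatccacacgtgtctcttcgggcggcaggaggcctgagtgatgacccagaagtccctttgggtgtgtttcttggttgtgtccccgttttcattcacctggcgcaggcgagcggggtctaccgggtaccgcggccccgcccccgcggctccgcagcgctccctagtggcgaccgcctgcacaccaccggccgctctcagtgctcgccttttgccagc
Sfrp5: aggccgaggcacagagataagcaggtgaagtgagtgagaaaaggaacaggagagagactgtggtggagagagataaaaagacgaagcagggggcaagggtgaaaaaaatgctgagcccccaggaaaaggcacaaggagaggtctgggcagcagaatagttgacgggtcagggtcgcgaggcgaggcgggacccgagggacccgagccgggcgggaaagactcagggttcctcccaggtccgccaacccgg
Axin2: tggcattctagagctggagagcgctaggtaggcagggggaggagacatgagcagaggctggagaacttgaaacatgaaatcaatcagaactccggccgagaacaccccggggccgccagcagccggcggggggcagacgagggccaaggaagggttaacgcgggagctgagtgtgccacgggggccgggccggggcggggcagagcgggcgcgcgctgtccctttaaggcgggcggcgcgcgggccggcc
Fzd7: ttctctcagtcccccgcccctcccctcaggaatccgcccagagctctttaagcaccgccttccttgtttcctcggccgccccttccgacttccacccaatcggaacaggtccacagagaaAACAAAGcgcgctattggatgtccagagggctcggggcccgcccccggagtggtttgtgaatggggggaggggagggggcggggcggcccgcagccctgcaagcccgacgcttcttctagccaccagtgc
The TCF/LEF motif was searched with the letters CTTTGAA, or else the variant CTTTGAT, or else the variant CTTTGTA, or else the variant CTTTGTT, on both strands. The match in Fzd7 is CTTTGTT on the opposite strand. The bases just after the annotated start were found in a GENCODE transcript of the gene for Wif1, Sfrp5 and Axin2, but not for Fzd7. The Fzd7 window may therefore not lie at the start of the transcripts annotated there. The core of the Notch effector CSL was searched as TGGGAA on both strands and was found in 1 of the 7, Frzb. No match of one motif overlapped a match of the other. Of 32851 promoter windows of this length, 14.8% held a TCF/LEF motif and 21.6% a CSL core. A match describes letters in this window and says nothing of binding.

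**Figure D1:**
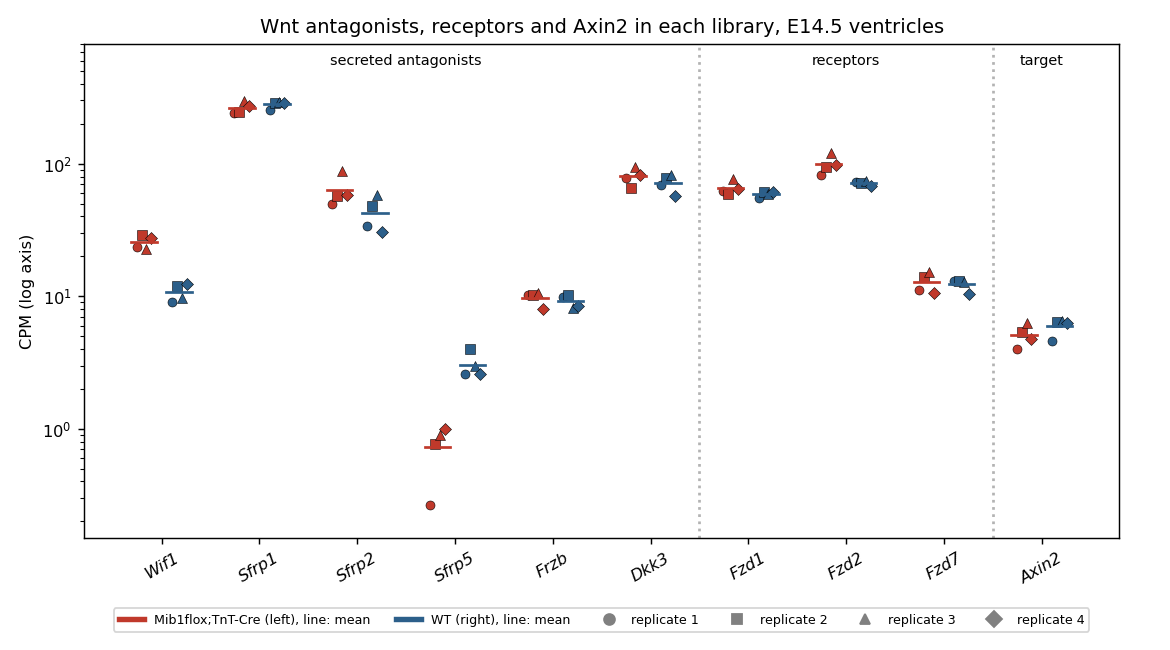
CPM on a log axis for each of the 10 genes in each library (marker shape: replicate number; line: mean of 4), mutant libraries left of wild-type libraries. Wif1 and Fzd2 lie higher in all mutant libraries, Sfrp5 lower, and the other 7 genes overlap between the groups.

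Of the 10 genes 3 were called, 2 higher (Wif1 and Fzd2) and 1 lower (Sfrp5), and these same 3 were the genes whose groups did not overlap. Over all genes tested, 2.24% were called and 8.89% had groups that did not overlap (4.26% with all mutant libraries above, 4.63% with all below). Nothing is read from the counts of the 10, since they were chosen on this contrast. Their median log2 difference was 0.12, against 0.001 over all genes tested. In whole ventricles, fewer cells of a type and less RNA per cell cannot be told apart.

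Wif1 (ENSMUSG00000020218), Wnt inhibitory factor 1, binds Wnt proteins and keeps them from their receptors. It stood at 23.5, 29.0, 22.9 and 27.4 CPM in mutant replicates 1 to 4, against 9.08, 11.9, 9.76 and 12.3 CPM in wild-type replicates 1 to 4. Every mutant library was above every wild-type library, with mutant replicate 3 the lowest of its group. The log2 difference was 1.25 ± 0.12 (SE, n = 4 each) and stayed between 1.18 and 1.32 whichever library was left out. The reads behind it were 867 in all mutant libraries and 333 in all wild-type libraries.

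Sfrp5 (ENSMUSG00000018822), a secreted Frizzled-related protein, had the lowest level per kb of transcript of the 6 antagonists in both groups. The mutant libraries held 3, 6, 6 and 8 counts, or 0.265, 0.763, 0.898 and 0.997 CPM. The wild-type libraries held 18, 36, 19 and 21 counts, or 2.59, 4.0, 2.99 and 2.57 CPM. All mutant libraries were below all wild-type libraries, and mutant replicate 1 stood at the floor of 3 counts. Summed over the groups, 23 counts in mutants against 94 in wild type gave a ratio of 0.22 (95% exact binomial interval 0.133 to 0.35, for counting error only). The fitted log2 difference was −2.09 ± 0.38 (SE), and at these counts it depends on what is added before taking logs: it was −1.23 with 1 CPM added and −0.49 with 5 CPM added. The call was lost without wild-type replicate 2 (−1.96 ± 0.44, adjusted p = 0.0572).

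Atrial markers were set beside Sfrp5. Of 9 atrial markers tested, 8 lay below 0, 1 was called lower (Kcnj3) and 1 higher (Myl7), with a median of −0.31. With 1 library left out, the Myl7 call was lost in 6 of 8 fits and the Kcnj3 call in 0. The summed level of the 9 markers ran from 1417 to 1696 CPM in mutants and from 1446 to 1586 CPM in wild type. Most of it was Myl4, at 972 to 1135 CPM in mutants and 1083 to 1140 CPM in wild type. The groups did not overlap for 4 of the 9, against 8.89% of all genes tested. Kcnj3, Nr2f2 and Mybphl were lower in mutants and Myl7 was higher. None of the 9 markers was listed at 0 in every library. Their part in the Sfrp5 result was not tested.

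Sfrp2 (ENSMUSG00000027996) is another Wnt-binding member of the family. It stood at 49.4, 57.0, 87.4 and 58.3 CPM in mutant replicates 1 to 4, and at 34.0, 47.6, 58.4 and 30.6 CPM in wild-type replicates 1 to 4. The highest wild-type pool lay above 3 of the mutant pools. The log2 difference was 0.58 ± 0.19 (SE) and was not called. It was 0.41 without mutant replicate 3 and 0.74 without wild-type replicate 3. Exons of Sfrp2 overlap those of an opposite-strand gene, Gm26771, which shares 12.9% of the 50-base stretches of the Sfrp2 transcript. Strandedness of the counting was not stated, so reads of the overlapping exons cannot be told apart.

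Sfrp1 (ENSMUSG00000031548), the family member with the highest level, was at 241, 246, 298 and 273 CPM in mutants and at 256, 288, 293 and 287 CPM in wild type. The groups overlapped, and the log2 difference was −0.09 ± 0.07 (SE). Frzb (ENSMUSG00000027004), also called secreted Frizzled-related protein 3, ranged from 7.97 to 10.6 CPM in mutants and from 8.19 to 10.2 CPM in wild type, with a log2 difference of 0.09 ± 0.13. Dkk3 (ENSMUSG00000030772) is a divergent Dickkopf protein whose action on Wnt depends on context. It ranged from 65.5 to 95 CPM in mutants and from 57.0 to 82.8 CPM in wild type (0.16 ± 0.12). None of these 3 was called.

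Fzd2 (ENSMUSG00000050288), a receptor used by canonical and non-canonical Wnt ligands, was the only 1 of the 3 receptors to be called. It stood at 82.8, 93.6, 120 and 98.5 CPM in mutant replicates 1 to 4, against 72.3, 71.4, 73.9 and 67.4 CPM in wild-type replicates 1 to 4. The wild-type pools lay close together and the mutant pools, spread more widely (SD 15.6 CPM in mutants and 2.78 CPM in wild type), all lay above them. The log2 difference was 0.46 ± 0.09 (SE) and ranged from 0.36 (without mutant replicate 3) to 0.54 (without mutant replicate 1). The call was lost without wild-type replicate 1 (adjusted p = 0.0518) and without wild-type replicate 2 (adjusted p = 0.0553) in the limma fit.

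Fzd1 (ENSMUSG00000044674) and Fzd7 (ENSMUSG00000041075) are the closest relatives of Fzd2. Fzd1 was at 62.1, 58.9, 76.8 and 64.4 CPM in mutants and at 54.8, 61.3, 59.5 and 61.4 CPM in wild type, a log2 difference of 0.14 ± 0.08 (SE). Only mutant replicate 2 lay within the wild-type range. Fzd7 was at 11.2, 14.0, 15.3 and 10.6 CPM in mutants and at 13, 13.1, 12.8 and 10.4 CPM in wild type, a log2 difference of 0.04 ± 0.13 that turned negative when any 1 of 3 libraries was dropped. The transcripts of Fzd1, Fzd2 and Fzd7 shared 0 stretches of 50 bases with any other gene, each other included.

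Axin2 (ENSMUSG00000000142) stood at 3.97, 5.34, 6.28 and 4.73 CPM in mutant replicates 1 to 4 and at 4.61, 6.44, 6.46 and 6.24 CPM in wild-type replicates 1 to 4. The groups overlapped, with replicate 1 the lowest in each. The log2 difference was −0.23 ± 0.18 (SE), −0.12 without mutant replicate 1 and −0.34 without wild-type replicate 1 or without mutant replicate 3. Only 38 to 45 counts per mutant library and 32 to 58 per wild-type library stood behind it. The summed counts gave a ratio of 0.825 with a 95% exact interval of 0.664 to 1.02, for counting error only. An opposite-strand gene, Gm11670, overlaps exons of Axin2 and shares 2.59% of the 50-base stretches of its transcript.

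Levels were compared between genes per length, as CPM per kb of the longest coding transcript. Sfrp1 was first in both groups, at 60.5 ± 6.1 in mutants and 64.3 ± 3.82 CPM per kb in wild type (SD, n = 4 each), without overlap with the next gene. In mutants Sfrp2 (31.5 ± 8.35), Fzd2 (27 ± 4.27) and Dkk3 (23.9 ± 3.62) followed, and neighbours in that order overlapped. In wild type the order was Dkk3 (21.4 ± 3.41), Sfrp2 (21.3 ± 6.41) and Fzd2 (19.4 ± 0.758), again with overlapping neighbours. Fzd1 and Wif1 were next in both groups, each apart from its neighbours: Fzd1 at 15.6 ± 1.86 in mutants and 14.1 ± 0.739 CPM per kb in wild type, and Wif1 at 11.2 ± 1.3 and 4.69 ± 0.693 CPM per kb in mutants and wild type. Frzb and Fzd7 overlapped with each other near 3 CPM per kb. Sfrp5 was last in mutants (0.385 ± 0.171), below Axin2 (1.19 ± 0.23) without overlap, whereas in wild type Sfrp5 (1.6 ± 0.352) and Axin2 (1.39 ± 0.209) overlapped.

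**Figure D2:**
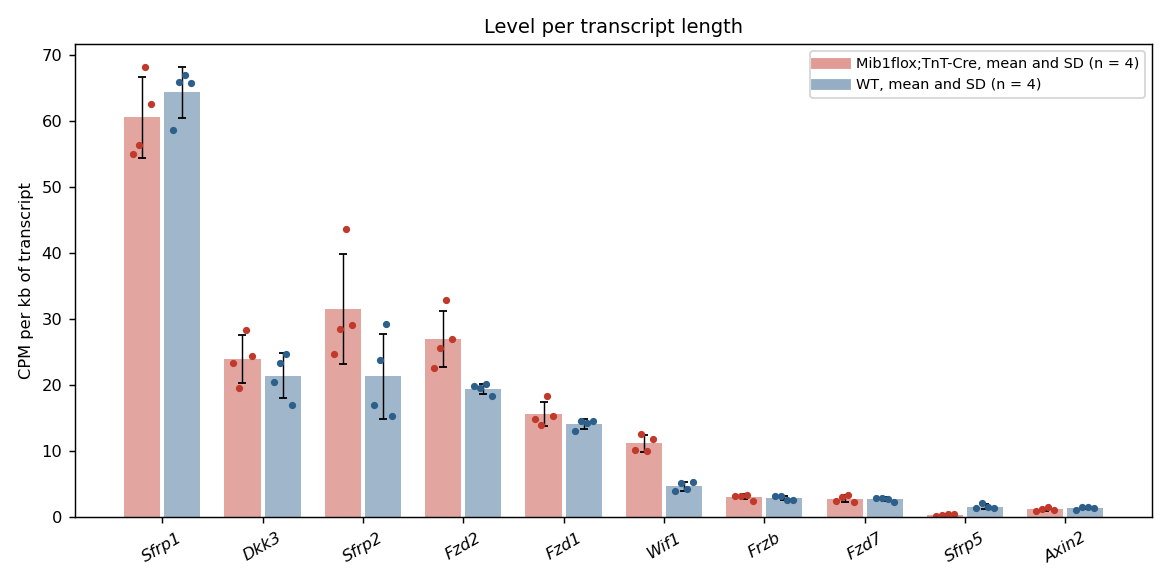
CPM per kb of transcript for the 10 genes in the order of the wild-type level (bars: mean, error bars: SD, points: 4 libraries), mutant left of wild type. Sfrp1 leads in both groups, and Wif1 stands between Fzd1 and Frzb in both groups at different heights.

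The 6 antagonists summed to 117, 121, 154 and 131 CPM per kb in mutant replicates 1 to 4 and to 105, 123, 129 and 107 CPM per kb in wild-type replicates 1 to 4, so the totals overlapped. Within that total the shares did not overlap for 3 genes. Wif1 made up 6.48 to 10.5% of it in mutants and 3.29 to 5.01% in wild type. Sfrp1 made up 44.3 to 47.7% in mutants and 51.8 to 61.2% in wild type, although its own level overlapped between the groups. Sfrp5 made up 0.119 to 0.4% in mutants and 1.22 to 1.7% in wild type. The 3 receptors summed to 39.9 to 54.4 CPM per kb in mutants and to 35.3 to 37.2 CPM per kb in wild type, of which Fzd2 made up 56.7 to 60.3% in mutants and 52.1 to 55.4% in wild type. These shares use the same contrast as the choice of genes and are given as a description.

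**Figure D3:**
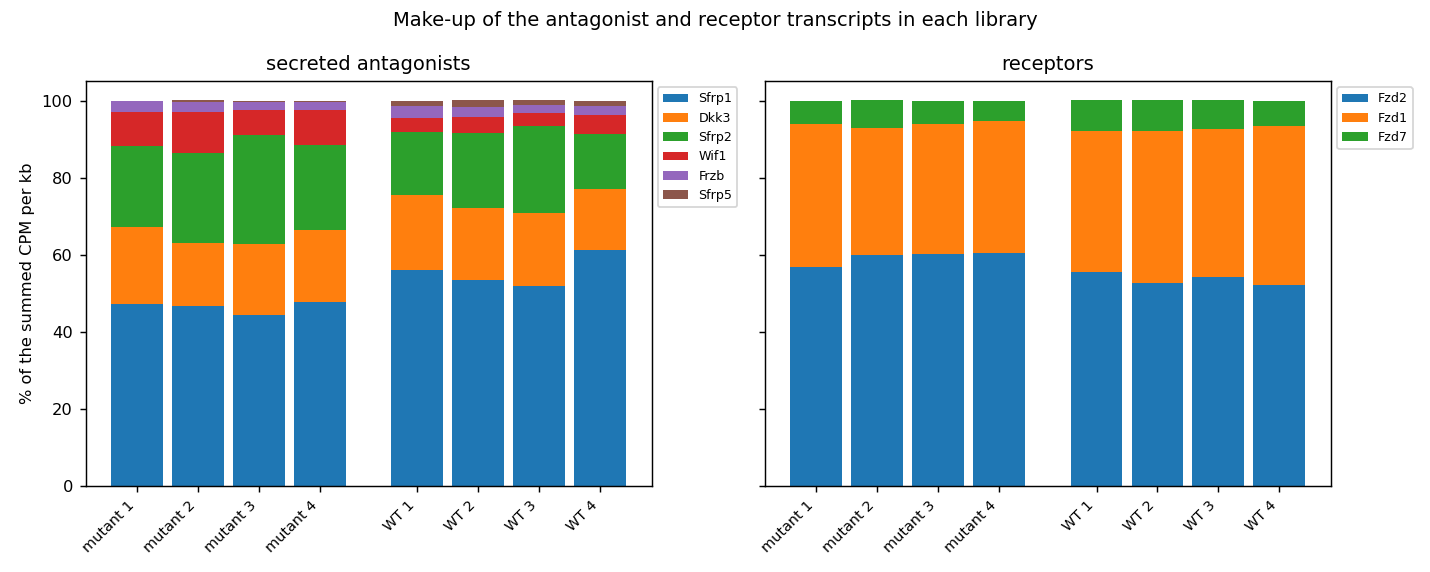
Share of each gene in the summed CPM per kb of the 6 antagonists (left) and of the 3 receptors (right), in percent, for each of the 4 mutant libraries and then each of the 4 wild-type libraries. Wif1 takes a larger share of the antagonists in every mutant library, and Fzd2 a larger share of the receptors.

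The pools differed among themselves in a way that several of the genes shared. Mutant replicate 3 had the highest level of its group in 8 of the 10 genes, all but Wif1 and Sfrp5, against 28.4% of all genes tested. This count was made after the values were seen. In that pool 8 of 9 epicardial markers and 8 of 11 fibroblast and cushion markers were also at their highest among the mutants. The same held for 6 of 10 macrophage, 4 of 9 atrial, and 4 of 9 smooth muscle and pericyte markers. It held for 3 of 12 endocardial and endothelial, 2 of 10 cardiomyocyte, 2 of 9 erythroid and 1 of 4 neural markers. The summed epicardial level ran from 235 to 267 CPM in mutants and from 226 to 241 CPM in wild type, and 0 of its markers were called. The summed fibroblast and cushion level ran from 4003 to 4511 CPM in mutants and from 4222 to 4605 CPM in wild type, with 1 of 11 called (Fbln1, lower). None of these markers was listed at 0 in every library, and their part in the spread of the 10 genes was not tested.

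The remaining family members are those that the choice of the 10 left, so nothing is read from their count of calls. Of 6 other Frizzled receptors tested, 0 were called by limma, or by voom weights. An unadjusted limma p under 0.05 was seen for 4 of the 6, against 14.8% of all genes tested. Fzd4, the receptor of the non-Wnt ligand norrin as well as of Wnt proteins, was at 44.1 to 49.6 CPM in mutants and at 37.2 to 40.6 CPM in wild type without overlap (0.23 ± 0.07, SE; limma adjusted p = 0.0859). Fzd3 was at 8.38 to 10.6 CPM in mutants and at 3.94 to 8.1 CPM in wild type (0.61 ± 0.2). Fzd8 differed in the other direction, at 8.29, 8.14, 14.7 and 9.47 CPM in mutants and at 19.0, 13.1, 14.2 and 15 CPM in wild type (−0.62 ± 0.18; limma adjusted p = 0.0925). Mutant replicate 3 alone reached the wild-type range for Fzd8, and without it the gene was called lower (−0.81 ± 0.14, limma adjusted p = 0.00585). Fzd6 stood at 0.19 ± 0.08, Fzd5 at −0.11 ± 0.12 and Fzd9 at 0.04 ± 0.15. Dkk2, the other Dickkopf gene tested, stood at −0.16 ± 0.26.

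Across the pathway, 124 genes in 11 lists were looked up, 99 were tested and 89 of these were not among the 10. The 89 are likewise what the choice of the 10 left, so nothing is read from their count of calls. None of the 89 was called by limma or with voom weights, 1 was called with robust variance (Lgr4), and 20 had an unadjusted p under 0.05 (22.5%, against 14.8% of all genes tested), 15 higher and 5 lower. The groups did not overlap for 13 of the 89 (14.6%, against 8.89% of all genes tested), 11 higher and 2 lower. Their median log2 difference was 0.02, and 79 lay within 0.3 of 0 on the log2 scale.

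By role, 9 Wnt ligands were tested and 0 were called; 7 lay below 0, with a median of −0.21. The ligand of smallest p was Wnt2, at 0.747 to 1.27 CPM in mutants and 1.44 to 2.16 CPM in wild type (−0.96 ± 0.3, SE; limma adjusted p = 0.135), from 6 to 10 counts per mutant library and 13 to 15 per wild-type library. Wls, which carries Wnt proteins to the cell surface, stood at 0.17 ± 0.07 and Porcn, which attaches their lipid, at −0.3 ± 0.2. Among 6 co-receptors tested (0 called, median −0.03), Ror1, a receptor of non-canonical Wnt5a signals, stood at 0.21 ± 0.07, Lrp5 at −0.04 ± 0.1 and Lrp6 at 0.05 ± 0.06. Of 4 R-spondin and Lgr genes tested, 0 were called. Lgr4, an R-spondin receptor that strengthens Wnt signals, was at 144, 138, 119 and 129 CPM in mutants and at 103, 112, 110 and 120 CPM in wild type, overlapping by 1 library (0.25 ± 0.07; limma adjusted p = 0.0708, and 0.0191 without mutant replicate 3). Of 10 secreted antagonists tested, 1 was called higher and 1 lower, both described above. Sost, an Lrp5 and Lrp6 antagonist, stood at 0.9 ± 0.27 (means of 4.64 CPM in mutants and 2.4 CPM in wild type), and its groups overlapped. The more abundant Igfbp4 stood at −0.18 ± 0.06 (means of 209 CPM in mutants and 237 CPM in wild type). Every mutant library was below every wild-type library for Igfbp4. Neither Sost nor Igfbp4 was called. Of 6 membrane antagonists tested 0 were called, and the one of smallest p, Tpbg, stood at 0.31 ± 0.17.

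Of 22 genes of the destruction complex and Dishevelled, 0 were called (median 0.05). The one of smallest p, Csnk1a1, a kinase of the destruction complex, stood at 0.14 ± 0.05 (SE). Beta-catenin itself, Ctnnb1, averaged 1061 ± 9.25 CPM in mutants and 987 ± 8.88 CPM in wild type (SD, n = 4 each). These groups did not overlap, and the log2 difference was 0.1 ± 0.04 (limma adjusted p = 0.262). Of 16 TCF/LEF factors and cofactors 0 were called, and Aes, a short Groucho-family cofactor, had the smallest p (−0.15 ± 0.07). Of 11 beta-catenin targets, Axin2 included, 0 were called, with 4 above and 7 below 0 and a median of −0.01; Apcdd1, a membrane inhibitor and target, had the smallest p (0.19 ± 0.11). Lef1 stood at 0.23 ± 0.16, Tcf7 at 0.27 ± 0.18, Nkd1 at −0.13 ± 0.12 and Ccnd1 at −0.01 ± 0.05. Of 11 planar polarity genes 0 were called and 9 lay above 0 (median 0.11), with Ankrd6, the mammalian relative of fly Diego, at 0.29 ± 0.09.

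**Figure D4:**
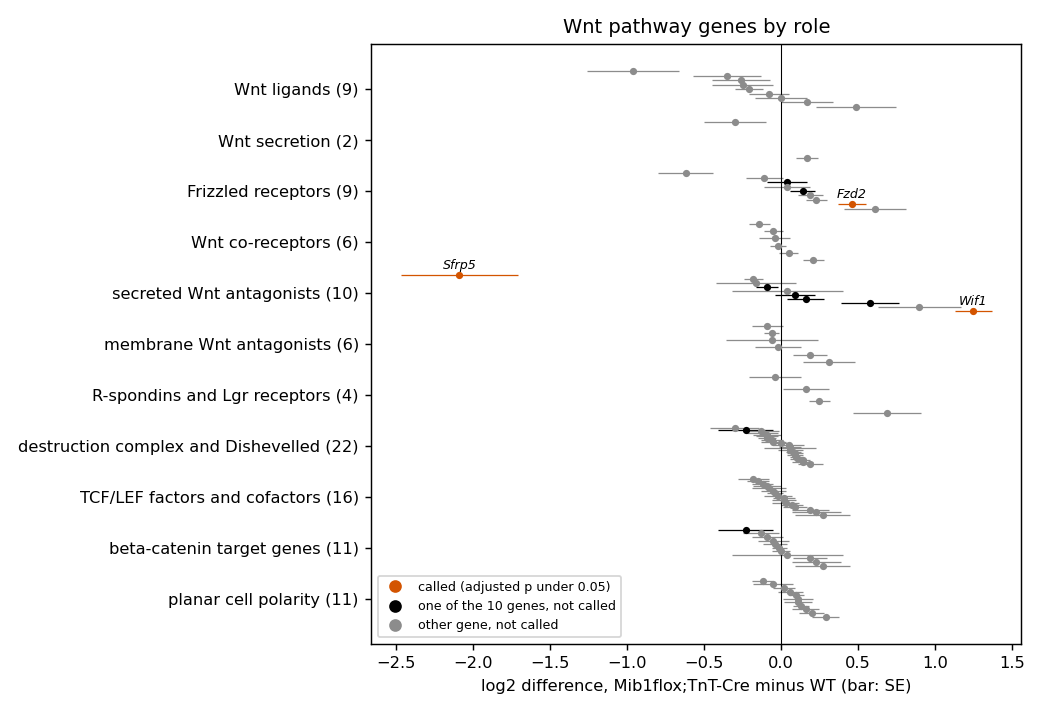
Log2 difference between mutant and wild type with its SE for every tested gene of the 11 pathway lists, grouped by role (number of genes in brackets); a gene in 2 lists is drawn in each. Wif1, Fzd2 and Sfrp5 are the called genes, and most others lie within 0.3 of 0.

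Among 11115 other genes of at least 5 CPM with a symbol, those whose log2 CPM followed Wif1 most closely over the 8 libraries were Mamld1 (Pearson r = 0.989), Plekha6 (0.985) and Parm1 (0.983). Each was higher in every mutant library than in any wild-type library, as Wif1 was; Mamld1, for example, was at 26.9 to 33.2 CPM in mutants and 17.3 to 20.3 CPM in wild type. Those most like Axin2 were Utp3 (0.966), Cdipt (0.962) and Mis18a (0.95), which like Axin2 were lowest in replicate 1 of each group. These values are a description over 8 libraries, which share the difference between the groups, and were taken as the highest of many.

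Markers of other cell types differed between the same groups. Over all genes tested, 0.99% were called higher and 1.25% lower. Of 12 endocardial and endothelial markers 7 were called lower (median −0.31), with sums of 1131 to 1165 CPM in mutants and 1343 to 1371 CPM in wild type. Of 10 macrophage markers 3 were called lower (median −0.52), with sums of 72.3 to 89 CPM in mutants and 106 to 129 CPM in wild type. Of 9 smooth muscle and pericyte markers 2 were called higher (Acta2 and Cnn1) and 1 lower (Abcc9), with 5 above and 4 below 0 (median 0.13). Their sums were 1697 to 1814 CPM in mutants and 1417 to 1603 CPM in wild type. Most of each sum was Acta2, at 1015 to 1124 CPM in mutants and 757 to 914 CPM in wild type. Of 9 erythroid markers 2 were called lower (median −0.49), with sums of 1966 to 3228 CPM in mutants and 3002 to 4090 CPM in wild type. Of 4 neural markers 0 were called. With 1 library left out, the call was lost in 7 of 8 fits for Tek and in 6 for Egfl7, C1qc and Hba-a1. It was lost in 5 for Cnn1 and Abcc9 and in 0 for the other markers called in these lists. No marker was listed at 0 in every library, and the part of these cells in the values of Wif1, Fzd2 and Sfrp5 was not tested.

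**Figure D5:**
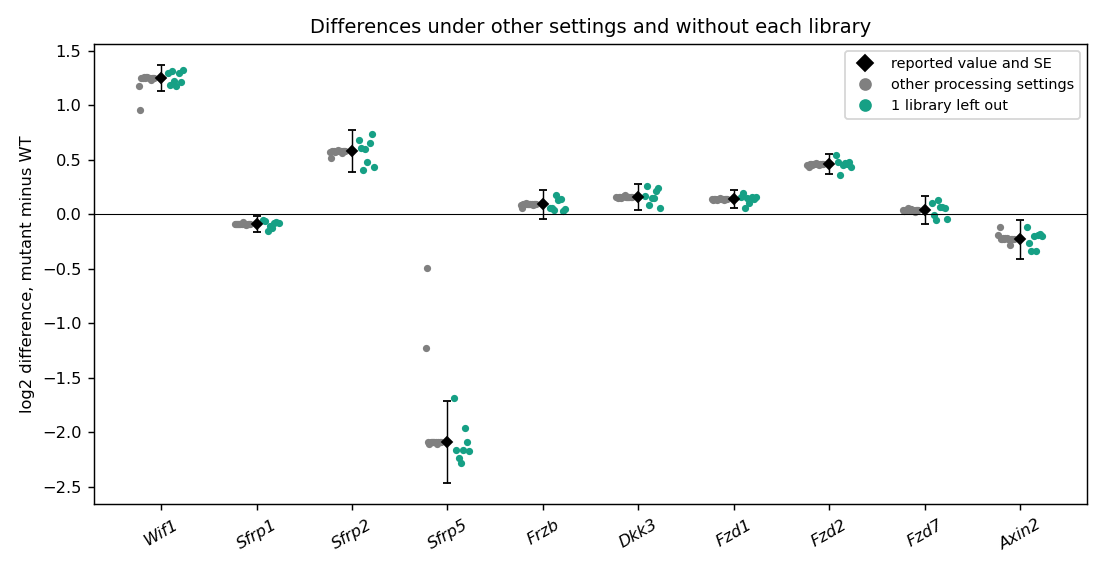
Log2 difference between mutant and wild type for the 10 genes: the reported value with its SE (diamond), 14 other processing settings (grey, left) and the 8 fits with a library left out (green, right). Wif1 lies between 0.96 (with 5 CPM added before taking logs) and 1.32 and Fzd2 between 0.36 (without mutant replicate 3) and 0.54, and Sfrp5 reaches −0.49 with 5 CPM added.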

How the data were processed

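Polyadenylated RNA of 8 pooled ventricle samples was sequenced. Per the submitters' processing notes, cutadapt 1.2.1, RSEM 1.16, Bowtie2 0.12.7 (version as named), limma and edgeR were used, with build mm9. The deposited values are a score: tested on the values, each is log2 CPM (prior of 0.5 counts, normalized library size) times a column constant (15.9683 to 16.0735) so that a column sums to 1000000. Dividing by it gave log2 CPM, and 100% of values then came back as whole counts within 0.001 counts. How the authors chose the 13869 genes was not stated.

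Symbols came from GENCODE M21 by Ensembl identifier (13428 matched, 441 did not), and transcript lengths from its transcripts. Mutant and wild-type log2 CPM were fitted in limma 3.58.1 under R 4.3.3, with group as the only term and eBayes with a trend, over genes with a mean of at least 0; p-values were two-sided and Benjamini-Hochberg adjusted over all 13740. The normalization keeps differences relative to the bulk of genes, whose median log2 difference was 0.001. The fit was tested on simulated counts that had the same dispersion for every gene. That test does not cover how these pools vary among themselves. The deposited unit is not a count, so limma on log2 CPM was the main test. Of methods for counts only voom was run, on the recovered reads, and edgeR and DESeq2 were not run here.

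The 10 genes, the gene lists and the tests were chosen with earlier results of these data known. Alternatives were 14 settings and 8 fits that each dropped a library. Named were the 10 genes, Mib1 and tested Frizzled, Sfrp and Dkk relatives. Up to 4 called genes of each pathway list, or its gene of smallest p, were also named. So were 3 genes of like pattern for Wif1 and for Axin2. Ctnnb1, Porcn, Lrp5, Lrp6, Sost, Igfbp4, Lef1, Tcf7, Nkd1, Ccnd1 and the cell type markers were named after their values were seen.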

Additional observations from a re-analysis of the deposited data

Results flagged for a closer look

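Within the groups of 4 libraries, 5 values of the named genes stood apart from the other 3 by the ratio of Dixon (95% critical value, 54 groups examined; chance alone gives about 1 in 20). Frzb in mutant replicate 4 was at 7.97 CPM (64 counts), against 10.2 to 10.6 CPM in the other mutants. Sfrp1 in wild-type replicate 1 was at 256 CPM, against 287 to 293 CPM. Fzd7 in wild-type replicate 4 was at 10.4 CPM (85 counts), against 12.8 to 13.1 CPM. Axin2 in wild-type replicate 1 was at 4.61 CPM (32 counts), against 6.24 to 6.46 CPM. Wls in wild-type replicate 4 was at 188 CPM, against 174 to 176 CPM. None of these 5 genes was called with all libraries in the fit.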

How the results depend on the processing

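Wif1 was called higher under all 14 settings and in all 8 fits with a library left out. Fzd2 lost its call with eBayes without trend (adjusted p = 0.112), at a threshold of 0.01, and without wild-type replicate 1 or 2; Sfrp5 lost it at 0.01 and without wild-type replicate 2, and could not be fitted with a filter at a mean of 5 CPM. At 0.01, 1 of the 10 genes and of the pathway genes was called. The all-gene count of 308 (136 higher, 172 lower) became 179 (70 and 109) without a variance trend, 119 (54 and 65) at 0.01 and 551 (252 and 299) at 0.1. At 0.1 the pathway lists held 6 called genes, 3 of them (Fzd4, Fzd8 and Lgr4) outside the 10, and robust variance called 1 such gene. Cell type markers called numbered 18, and 8 without a trend and 11 at 0.01. With 1 library left out, the counts ranged from 146 to 477 over all genes (64 to 208 higher, 81 to 269 lower), from 1 to 3 of the 10 genes, from 1 to 5 pathway genes, from 0 to 2 of those outside the 10 and from 11 to 16 markers. Fzd7 turned negative without mutant replicate 2 (−0.01), mutant replicate 3 (−0.05) or wild-type replicate 4 (−0.04; range −0.05 to 0.13), and Fzd9 without wild-type replicate 3 (−0.03; range −0.03 to 0.13). The cause of these changes was not tested. The numbers shared between groups are not known to pair the samples (correlations of −0.04 to 0.1 after removal of the group means; 0 mutant and 1 wild-type library resembled its own number best); with the replicate block 240 genes were called, 4 of them among the 10, Sfrp2 being added at 0.58 ± 0.1 (SE; limma adjusted p = 0.01). Sfrp5, Axin2 and Wnt2 rest on 3 to 58 counts per library, which limits what can be said of them.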
